A study of Mus musculus with 4 samples.

Results

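Transcripts of 10 transcription regulators that pattern the lung epithelium were examined in 4 lung tumours of KP mice: Nkx2-1, Foxa1, Foxa2, Gata6, Cebpa, Etv5, Sox9, Sox2, Id2 and Foxp2. They are the rows of the combined count table whose gene symbol equals 1 of these names, and they make up 10 of its 39017 genes. KP mice carry floxed p53 alleles, and adenocarcinomas form in their lungs once Cre is delivered. All 4 tumours were controls from male C57BL/6 mice given 1500 viral units of a Cre lentivirus through the trachea, and they were macrodissected after 22 weeks and 5 days. Per the genotype label they were also fl/wt at a gene it leaves unnamed. In the methods, controls carry either no floxed Slc2a1 allele or 1, and the deposited log2 table marks all 4 as WT. Cre was driven by the PGK promoter, which is active in most cell types, so the cell in which each tumour began was not set by the vector. RNA came from whole single-cell suspensions, hence from tumour and host cells together. Nothing in the labels says whether the tumours came from separate mice, so the p-values given here measure only the spread between these 4 libraries.

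The lung epithelium arises from foregut cells that switch on Nkx2-1, and the forkhead factors Foxa1 and Foxa2 and the zinc finger factor Gata6 act beside it in the branching airway and in surfactant genes. At the tips of the growing buds, Fgf signals through Erk raise Etv5, and Sox9 and Id2 mark the progenitors there, while Sox2 marks the stalks that become airways. Cebpa acts later, in alveolar maturation, and Foxp2 is a repressor of the distal epithelium. In lung adenocarcinoma, Nkx2-1 is known for holding tumour cells in an alveolar state.

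Libraries held 8151613 to 8799007 counts. Values are CPM, counts per 1e+06 of effective (TMM-scaled) library size, and a gene with at most 3 counts (0.330 to 0.370 CPM) in a tumour was taken as at the floor, the limit that a count of 0 allows. The 4 libraries formed 1 group, so no conditions were compared, and the measurement is the level of each factor and its spread between tumours. For each of 14225 genes that averaged 1 CPM or more, the 4 counts were compared with Poisson expectations proportional to effective size by a chi-square test with Benjamini-Hochberg adjustment over all of them. The test sets libraries, not conditions, against counting error. Markers of the labelled tissue were abundant. Sftpc, the surfactant protein that defines alveolar type 2 cells, stood at 17722, 26616, 24926 and 29617 CPM in tumours 1 to 4, and the epithelial cadherin Cdh1 at 842 to 887 CPM.

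The promoters of 7 of the 10 factors, 10 windows in all because Foxa2 and Etv5 have several starts, were held in the RefSeq promoter table for GRCm38.p6, and those of Gata6, Sox9 and Foxp2 were not. The 250 bases before each start were searched on both strands for the core letters bound by these families: CAAGTG for Nkx2-1, TGTTTAC for forkhead factors, AGATAA for GATA factors, TTGCNNAA for C/EBP factors, CCGGAAG for Ets factors and ACAAAG for Sox factors. Foxa1 is shown because its window holds a forkhead match set inside a pair of Sox matches that overlap it, on opposite strands. Sftpa1 and Lamp3, a surfactant protein and a lamellar body protein of type 2 cells, are shown because they varied most between tumours among the surfactant genes, as described below. Each is printed 5′ to 3′ on the strand of the gene, with every match to 1 of the 6 motifs in capitals.
Foxa1, chr12:57546112-57546361, minus strand: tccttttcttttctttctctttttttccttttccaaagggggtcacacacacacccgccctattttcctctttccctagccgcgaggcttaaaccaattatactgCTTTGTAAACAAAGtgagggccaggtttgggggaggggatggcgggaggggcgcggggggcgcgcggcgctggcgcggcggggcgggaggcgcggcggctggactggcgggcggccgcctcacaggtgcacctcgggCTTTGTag
Sftpa1, chr14:41131538-41131787, plus strand: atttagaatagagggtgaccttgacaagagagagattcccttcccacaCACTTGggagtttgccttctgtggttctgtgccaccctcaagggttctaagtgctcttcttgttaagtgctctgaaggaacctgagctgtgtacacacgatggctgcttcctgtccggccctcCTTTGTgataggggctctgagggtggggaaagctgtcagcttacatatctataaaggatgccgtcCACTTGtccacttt
Lamp3, chr16:19706366-19706615, minus strand: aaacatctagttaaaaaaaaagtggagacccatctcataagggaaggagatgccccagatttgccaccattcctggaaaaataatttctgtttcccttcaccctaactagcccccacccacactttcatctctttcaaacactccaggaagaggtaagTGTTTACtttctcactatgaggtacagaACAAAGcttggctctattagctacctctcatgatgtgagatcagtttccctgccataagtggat
In Foxa1 the capitals from -145 to -132, counted from the start, hold the forkhead match at -141 to -135, and another Sox match lies at -8 to -3. This RefSeq start lies 805 nt inside the Foxa1 gene of GENCODE M21, so the window belongs to an internal start. In Sftpa1 the Nkx2-1 letters occur at -202 to -197 and at -14 to -9, and a Sox match lies between them. In Lamp3 the forkhead letters occur at -92 to -86, followed by a Sox match. Among the 10 windows of the factors themselves, 2 held the forkhead motif (Foxa1 and Etv5), 3 the Sox motif, 1 the GATA motif (Foxa2), 1 the C/EBP motif (Sox2), and 0 the Nkx2-1 or the Ets motif. The same motifs occurred in 3.17%, 16.5%, 9.99%, 9.56%, 11.6% and 6.91% of all 32851 promoters in the table, in that order. A match is a description of the letters, not of binding, which these data did not measure.

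Of the 10 factors, 9 were expressed well above the floor and Sox2 was not. Their mean levels, not corrected for length, ran from 31.4 ± 17.7 CPM for Sox9 to 518 ± 105 CPM for Id2 (SD, n = 4). The 4 counts spread beyond counting error for 9 of the 9 factors tested, against 76.7% of all genes tested and 85.3% of those with a mean CPM of at least 10, so being called says little about these genes. A range of at least 2-fold was found for 1 of the 9, Sox9, against 28.5% of all genes tested and 17.2% of those with a mean CPM of at least 10. The median SD of log2 CPM between tumours was 0.31 over the 9 factors and 0.29 over all genes tested. The median coefficient of biological variation was 22.5% over the factors and 25.7% over all genes tested.

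**Figure D1:**
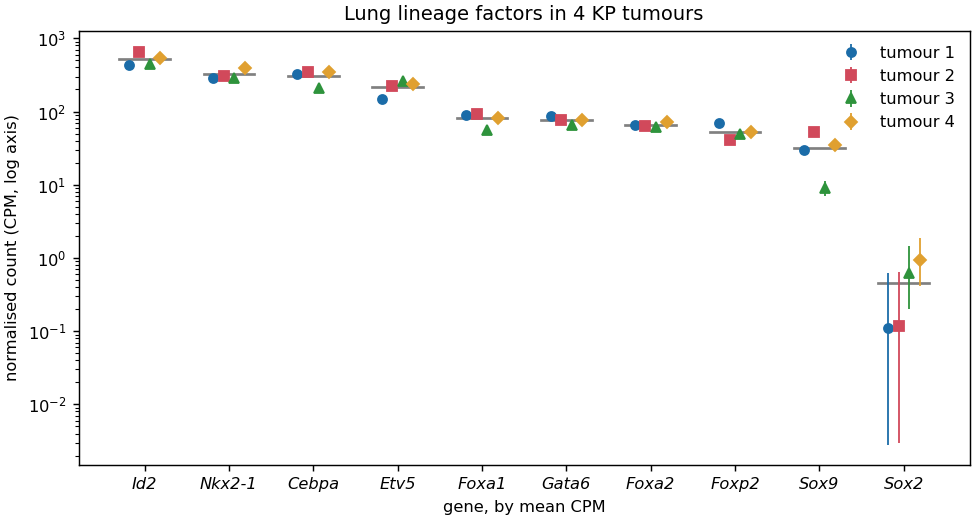
CPM (log axis) of the 10 factors, ordered by mean CPM, in tumours 1 to 4 (symbols), with exact 95% Poisson intervals for counting error and the mean of the 4 tumours as a grey bar. The tumours lie close together for 8 factors, Sox9 in tumour 3 sits apart at 8.89 CPM, and Sox2 lies below 1 CPM in every tumour.

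Nkx2-1, the homeobox factor that defines lung and thyroid epithelium, was at 290, 306, 291 and 396 CPM in tumours 1 to 4. Tumours 1 to 3 lay within 1.06-fold of each other and tumour 4 stood above them, for a mean of 321 ± 50.9 CPM (SD, n = 4) and a range of 1.37-fold. The spread exceeded counting error (adjusted p = 3.4e-43), and without tumour 4 it did not (adjusted p = 0.104), where the SD of log2 CPM went from 0.21 to 0.04. Of all genes tested, 67.4% had a larger SD on the log2 scale. The gene lies on chr12:56531958-56536908, minus strand, with 3 exons in its longest transcript, the one exon numbers here refer to (GRCm38, GENCODE M21). The antisense gene Gm26973 overlaps it without sharing exon bases and was at 3.74, 5.69, 6.42 and 7.02 CPM. Whether reads were counted by strand was not given in the sources used here.

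Foxa1 and Foxa2 are the paired forkhead factors that open chromatin at endodermal genes. Foxa1 (chr12:57540628-57546916, minus strand) was at 90.8, 91.8, 56.4 and 82.5 CPM, and tumour 3 was the low one. Foxa2 (chr2:148042877-148046969, minus strand) was at 65.8, 63.4, 61.1 and 72.4 CPM, within 1.19-fold, and 92.7% of the genes tested had a larger SD. Its spread passed the test narrowly (adjusted p = 0.037), and with DESeq2 size factors it did not (adjusted p = 0.052), nor without tumour 3 (0.094) or tumour 4 (0.568). For Foxa1 the spread passed (adjusted p = 2.0e-17), but not without tumour 3 (0.121), where the SD of log2 CPM went from 0.33 to 0.08. Without tumour 4 that of Foxa2 went from 0.105 to 0.05. Per kilobase of exon, the ratio of Foxa1 to Foxa2 was 0.983, 1.03, 0.658 and 0.812, so Foxa2 was the higher of the pair in 3 of 4 tumours. The mean difference of 0.22 ± 0.30 on the log2 scale (SD, n = 4) was smaller than its own spread (two-sided exact permutation of signs, p = 0.375, where the smallest p that 4 tumours allow is 0.125).

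Gata6, which with Nkx2-1 and the Foxa factors drives surfactant genes, was at 87.1, 77.5, 64.4 and 75.9 CPM (chr18:11052064-11085635, plus strand). The mean was 76.2 ± 9.32 CPM (SD, n = 4), and the range of 1.35-fold was nearly that of Nkx2-1, although tumour 1 was highest here and tumour 4 there. The spread exceeded counting error (adjusted p = 4.8e-06), and without tumour 3 the SD of log2 CPM went from 0.18 to 0.11. The gene 1010001N08Rik, on the opposite strand, shares 93 exon bases with Gata6 and was at 7.67 to 13.6 CPM.

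Cebpa, the leucine zipper factor of alveolar maturation that also acts in myeloid cells, was at 326, 348, 207 and 341 CPM (chr7:35119293-35121928, plus strand, 1 exon). Tumours 1, 2 and 4 lay within 1.07-fold and tumour 3 was low, for a mean of 306 ± 66.3 CPM (SD, n = 4). The spread exceeded counting error (adjusted p = 6.9e-75), but not without tumour 3 (adjusted p = 0.065), where the SD of log2 CPM went from 0.36 to 0.05. The antisense gene Gm45091 shares 51 exon bases with Cebpa, and its gene ID has no row in the count table. Among the 9 factors, the profile of Cebpa over the 4 tumours was most like that of Foxa1, with a root mean square difference of 0.08 on the centred log2 scale. Leukocyte RNA ran the other way: 5 of 5 leukocyte genes (Ptprc, Cd52, Cd53, Laptm5 and Coro1a) were highest in tumour 3, with summed levels of 114, 136, 269 and 156 CPM, and so were 4 of 4 macrophage genes, at 110, 123, 222 and 138 CPM summed. Their part in the lower Cebpa and Foxa1 of tumour 3 was not tested. In bulk samples such as these, fewer cells of a type and less RNA per cell cannot be told apart.

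**Figure D2:**
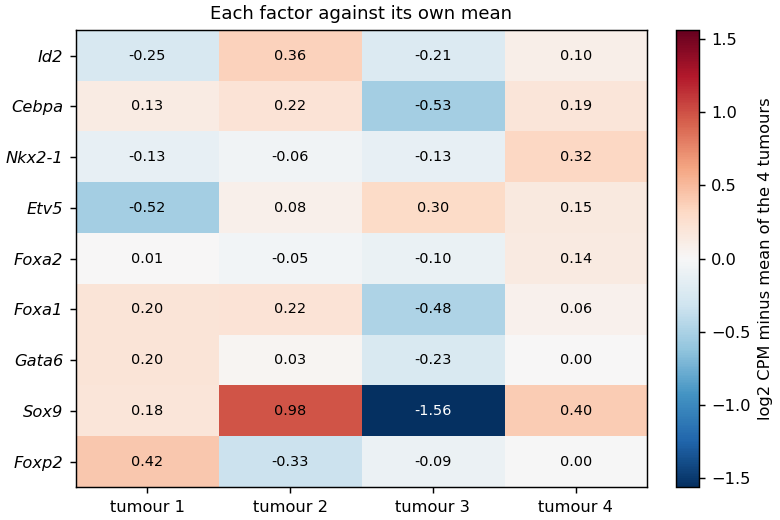
Log2 CPM of the 9 tested factors (rows, ordered by CPM per kb) in each tumour (columns) minus the factor's own mean over the 4 tumours, with red for above and blue for below. Tumour 3 is lowest for 5 of 9 factors and tumour 4 for 0, and the strongest colours belong to Sox9.

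Etv5, an Ets factor that Fgf and Erk signalling raises at the bud tip and that keeps type 2 cells in their state, was at 147, 224, 261 and 235 CPM (chr16:22381309-22439719, minus strand, 13 exons). Tumour 1 was low and tumours 2 to 4 lay within 1.17-fold, for a mean of 217 ± 48.9 CPM (SD, n = 4). The spread exceeded counting error (adjusted p = 9.0e-62), and without tumour 1 the SD of log2 CPM went from 0.36 to 0.12. It was the only factor of the 9 with its highest level in tumour 3. The pseudogene Gm4798 shares a stretch of 1700 nt with Etv5 and has no row in the count table, so the level of Etv5 is uncertain by what that stretch could take from it. Shorter stretches of 80 to 135 nt, with reads of 85 nt, are shared by Nkx2-1 with transcripts of 39 other genes and by Foxp2 with 2. They leave the levels of Nkx2-1 and Foxp2 uncertain in the same way. The only such stretch of Gata6, of 93 nt, is with 1010001N08Rik, the opposite-strand gene that shares 93 exon bases with it, and is no separate copy. The Erk feedback and output genes of a list that holds Spry, Spred and Dusp genes and the paralogues Etv1 and Etv4 were spread otherwise. Of its 12 genes, 9 were lowest in tumour 3, where their mean log2 CPM was 5.08 against 5.70 to 5.76 in the others, while Etv5 was highest there. Among them, Spred1, an inhibitor of Ras signalling, had the highest CPM not corrected for length, at 484, 657, 470 and 641 CPM. The AP-1 gene Fosl1 varied most, at 3.41, 1.39, 0.247 and 3.33 CPM. In tumour 3 Fosl1 had 2 counts, under the floor of 3, and this low value enters the mean of 5.08. Dusp4, an Erk phosphatase, varied least, at 42.2 to 54.9 CPM. All 12 spread beyond counting error, against 76.7% of all genes tested.

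Sox9, the marker of distal tip progenitors, was the factor that varied most. It had 272, 447, 72 and 292 counts, which made 29.9, 51.9, 8.89 and 34.7 CPM (chr11:112782224-112787760, plus strand, 3 exons). Tumour 3 was low, with a 95% Poisson interval of 6.95 to 11.2 CPM that overlaps none of the other 3, and tumour 2 was high, at 47.2 to 57.0 CPM. The highest tumour was 5.84-fold above the lowest (adjusted p = 2.6e-52), and without tumour 3 the range was 1.73-fold and the SD of log2 CPM went from 1.09 to 0.41. The SD ranked 695 of 14225, with 4.88% of genes tested above it. Sox9 is also the master factor of cartilage, and cartilage genes were not detectable at this depth: Col2a1 had at most 0.116 CPM and Matn1 had 0 counts in all 4 tumours, at a floor of 3 counts.

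The genes closest to Sox9 in profile, among those averaging 10 CPM or more, were Vcam1, an adhesion molecule, at 260, 349, 65.0 and 245 CPM (root mean square difference 0.14), Mtmr7, a lipid phosphatase, at 36.4, 57.7, 13.0 and 39.8 CPM (0.15), and Prrg1 at 11.7, 17.4, 4.20 and 13.6 CPM (0.18). The nearest of the other 8 factors was Cebpa, at 0.65. Over 4 tumours such a likeness describes these libraries only. The divergent gene BC006965, whose start lies 248 nt from that of Sox9, had 3, 8, 1 and 3 counts. A list of other distal tip genes held 4 above 1 CPM, and all 4 were lowest in tumour 3. The list leaves out the tip factors Etv5 and Id2, which differed. Etv5 was highest in tumour 3, at 261 CPM, and Id2 was lowest in tumour 1, at 430 CPM against 441 in tumour 3. Hmga2, a chromatin protein of embryonic progenitors, varied most of the 4 listed, at 5.50, 16.5, 2.34 and 7.49 CPM. Bmp4, a growth factor of the tip, had the highest level, per kb as well, at 207, 203, 120 and 254 CPM, and Etv4 varied least, at 55.7, 54.2, 39.6 and 49.4 CPM. Mycn, chosen after its values were seen, was at 72.1, 59.7, 17.8 and 52.5 CPM. The embryonic RNA-binding gene Lin28b had 0 counts in every tumour.

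Id2, a helix-loop-helix inhibitor found in tip progenitors and also in lymphoid and myeloid cells, was at 430, 654, 441 and 545 CPM (chr12:25093799-25097140, minus strand). Tumours 2 and 4 were high and tumours 1 and 3 low, for a mean of 518 ± 105 CPM (SD, n = 4) and a range of 1.52-fold (adjusted p of the spread 1.6e-117). Without tumour 2 the SD of log2 CPM went from 0.29 to 0.19. Although Id2 and Sox9 both mark the bud tip, tumour 3 was 5.84-fold below tumour 2 for Sox9 and 1.48-fold below it for Id2.

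Sox2, the factor of the conducting airway, had 1, 1, 5 and 8 counts, or 0.110, 0.116, 0.617 and 0.951 CPM, and its mean of 0.449 CPM kept it out of the test. Tumours 1 and 2 were under the floor of 3 counts, and the intervals of all 4 tumours overlap (tumour 1 reaches up to 0.613 CPM and tumour 4 down to 0.411 CPM). With no filter on low counts the spread passed the test (adjusted p = 0.037), on 15 counts in all, too few for its approximation to be relied on. The gene is at chr3:34650405-34652461, plus strand, within the span of the same-strand gene Sox2ot, whose GENCODE M21 gene ID has no row in the count table. Scgb1a1, which defines club cells, was at 9.79, 457, 736 and 450 CPM, and Foxj1, which defines ciliated cells, at 0.220, 2.56, 1.97 and 1.19 CPM. Of tumours 1 and 2, each with 1 count of Sox2, tumour 1 was thus lowest for both genes, with Foxj1 under the floor, and tumour 2 was not. The ciliated genes Tekt1 and Dnah5 were also lowest in tumour 1. Ccdc39, another ciliated gene, was highest there, at 5.17, 3.02, 4.20 and 4.28 CPM. Its spread did not pass the test (adjusted p = 0.204). Basal cells, which carry Sox2 in the trachea, were marked by Trp63 at 0 to 1.07 CPM and Krt5 at 0.116 to 0.440 CPM. The remaining basal gene, Krt14, had 191 counts in tumour 1 and 0 to 7 in tumours 2 to 4.

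Foxp2, a forkhead repressor of the distal lung, was at 69.4, 41.1, 48.7 and 51.7 CPM (chr6:14901349-15441977, plus strand, 19 exons). Tumour 1 was high, for a mean of 52.8 ± 12.0 CPM (SD, n = 4) and a range of 1.69-fold (adjusted p of the spread 6.1e-15). Without tumour 1 the SD of log2 CPM went from 0.31 to 0.17.

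Per kilobase of annotated exon, the scale on which genes can be compared, the order of mean levels was Id2 at 212 ± 43.0 CPM per kb, Cebpa at 116 ± 25.1, Nkx2-1 at 113 ± 17.9, Etv5 at 52.8 ± 11.9, Foxa2 at 27.7 ± 2.06, Foxa1 at 24.2 ± 4.96, Gata6 at 11.7 ± 1.43, Sox9 at 7.59 ± 4.28, Foxp2 at 3.23 ± 0.733 and Sox2 at 0.218 ± 0.200 (SD, n = 4 for each). Of 45 pairs of factors, 41 stood in the same order in all 4 tumours. The smallest p that the exact two-sided sign-flip permutation test allows is 0.125 (0.137 adjusted over the 45 pairs), so 0 pairs could pass 0.05. The 4 pairs without 1 order in all tumours were neighbours in the list: Cebpa and Nkx2-1, Foxa2 and Foxa1, Gata6 and Sox9, and Sox9 and Foxp2. Cebpa exceeded Nkx2-1 in tumours 1 and 2 and was below it in tumours 3 and 4, with a mean difference of 0.02 ± 0.33 on the log2 scale (SD, n = 4).

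Of the level summed over the 10 factors per kb, Id2 made up 37.2% ± 3.3 (SD, n = 4), Cebpa 20.3% and Nkx2-1 19.9%. The order depends on the length used. Foxp2 has 16346 nt of annotated exon over all its transcripts but 6760 nt in the longest, and on the latter it stood at 7.80 CPM per kb, above Sox9. Gata6 stood at 20.1 CPM per kb in place of 11.7 by the same choice, without a change of place, and Foxa2 exceeded Foxa1 in 4 of 4 tumours. With no correction for length, Gata6 exceeded Foxa2 in 4 of 4 tumours, Foxa1 exceeded Foxa2 and Foxp2 exceeded Sox9 in 3 of 4, and the mean of Nkx2-1 was above that of Cebpa.

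**Figure D3:**
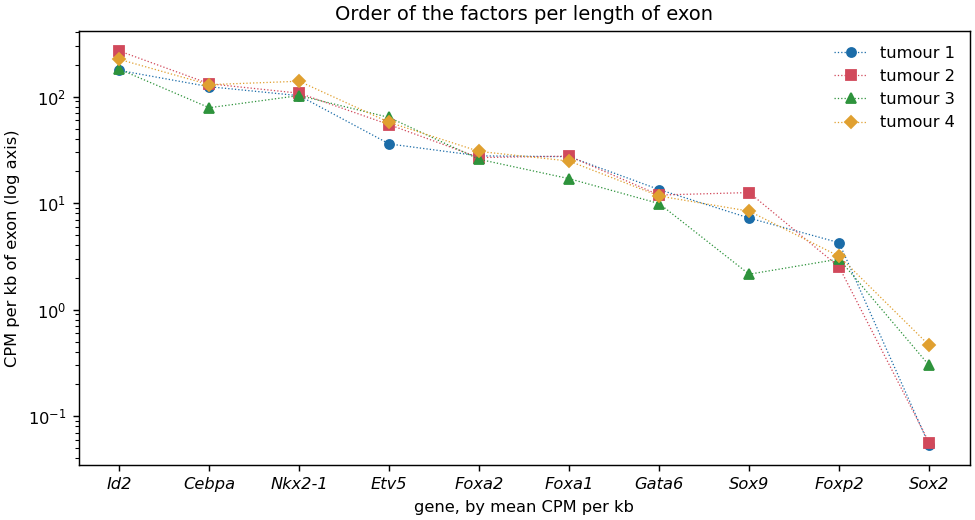
CPM per kb of annotated exon (log axis) of the 10 factors, ordered by the mean, with a symbol for each tumour and a dotted line that only joins the symbols of 1 tumour. Id2 is the highest of the 10 and Sox2 the lowest in all 4 tumours, and Sox9 in tumour 3 lies below Foxp2.

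The wider families of the factors held 38 further genes (Fox, Gata, Cebp, Etv, Sox, Id and Nkx2 genes), of which 20 had a mean CPM of at least 1, 16 spread beyond counting error and 10 had a 2-fold range. The 16 of 20 lie near the share of 76.7% over all genes tested, of which 28.5% had a 2-fold range. Another 13 were at the floor in every tumour: Gata1, Gata3, Cebpe, Sox1, Sox3, Sox8, Sox10, Sox15, Sox30, Nkx2-2, Nkx2-3, Nkx2-5 and Nkx2-9. Sox4, a widely expressed Sox factor, had the highest CPM of the families, not corrected for length, and, like Foxa1 and Cebpa, was low in tumour 3, at 285, 291, 180 and 277 CPM. Per kb it was at 53.9 CPM, above Sox9. Sox6 varied most, at 4.95, 22.9, 0.370 and 9.99 CPM, and was lowest in tumour 3, as Sox9 was. Its value in tumour 3 rests on 3 counts, at the floor, so the size of its range is uncertain. Cebpg, the dimer partner of other Cebp factors, varied least, at 165, 153, 163 and 166 CPM, and did not pass the test (adjusted p = 0.150).

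Chosen after its values were seen, Foxa3, the liver and gut member of the Foxa group, was at 20.8, 10.7, 1.23 and 12.3 CPM, a wider range than that of Foxa1 or Foxa2. Gata4, a gut and heart paralogue of Gata6, was at 6.71 CPM in tumour 1 and at 0.247 to 0.595 CPM in the others. Cebpb, the myeloid and stress paralogue of Cebpa, was highest where Cebpa was lowest, at 5.39, 7.20, 11.1 and 6.78 CPM. Per kb these paralogues, chosen alike, were below the factors they resemble, and the paralogues of Foxp2 were above it: Foxa3 at 5.52 against 24.2 and 27.7 for Foxa1 and Foxa2, Gata4 at 0.521 against 11.7 for Gata6, Cebpb at 5.07 against 116 for Cebpa, and Foxp1 and Foxp4 at 9.13 and 18.4 against 3.23 for Foxp2 (all CPM per kb).

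Of 15 other factors of the lung epithelium, 13 had a mean CPM of at least 1. Of these, 12 spread beyond counting error, against 76.7% of all genes tested. Ehf, an Ets factor of epithelia, had the highest CPM not corrected for length, at 182, 324, 293 and 238 CPM, and was lowest in tumour 1, as Etv5 was. Elf3, its relative, varied least, at 51.2 to 57.6 CPM, and did not pass the test (adjusted p = 0.298). Foxj1 varied most.

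**Figure D4:**
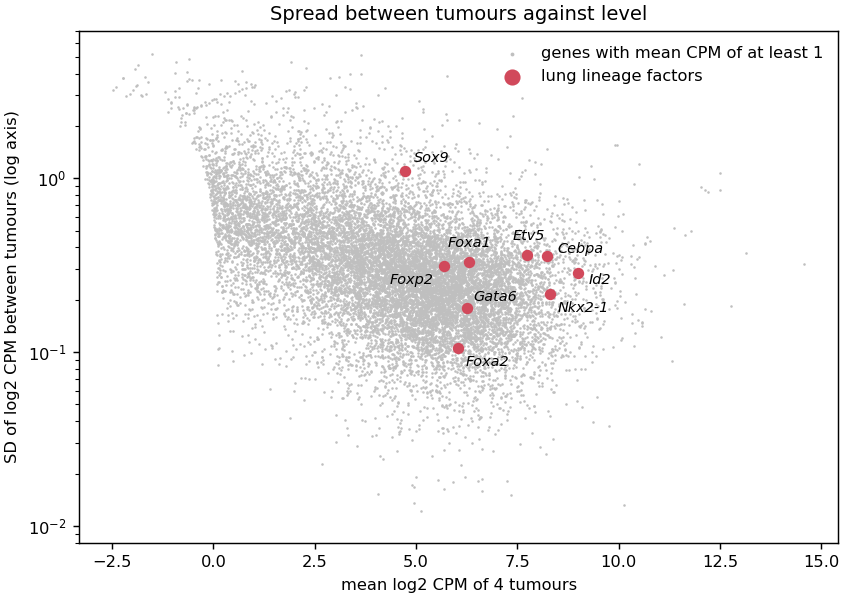
SD of log2 CPM between the 4 tumours (log axis) against mean log2 CPM for the 14225 genes averaging 1 CPM or more (grey) and the 9 tested factors (red). Sox9 lies above most genes of its level with an SD of 1.09, Foxa2 near the lower part at 0.105, and the others among the bulk of genes.

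Surfactant and type 2 genes, which Nkx2-1, the Foxa factors and Gata6 are known to drive, had a median SD of log2 CPM of 0.61 between tumours, against 0.31 for the 9 factors. All 10 spread beyond counting error and 5 had a 2-fold range, against 76.7% and 28.5% of all genes tested. Nkx2-1 ranged over 1.37-fold and Foxa2 over 1.19-fold. Their mean log2 CPM was 10.83 in tumour 1 and 11.88, 11.96 and 12.04 in tumours 2 to 4, and 8 of 10 were lowest in tumour 1. Sftpa1 was at 1956, 6988, 9244 and 9133 CPM and Lamp3, which varied most, at 420, 2263, 2515 and 1867 CPM. Abca3, the lipid pump of the lamellar body, varied least, at 876, 1134, 759 and 1066 CPM. Of the 9 factors, 3 were lowest in tumour 1, namely Nkx2-1, Etv5 and Id2, and Etv5 was the furthest below its other tumours. The margin was small for Nkx2-1 (290 against 291 CPM in tumour 3) and for Id2 (430 against 441 CPM in tumour 3). Relative to 4 epithelial genes, a scale given below, the log2 level of Nkx2-1 was -1.71 in tumour 1 and -0.93 in tumour 3. On that scale 77.5% of all genes tested and 7 of the 9 factors were lowest in tumour 1, so this low value is not particular to Nkx2-1. The part of the factors in the levels of surfactant genes was not tested.

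Among type 1 genes, 7 of 7 spread beyond counting error and 4 had a 2-fold range, against 76.7% and 28.5% of all genes tested. Ager, a receptor of type 1 cells, had the highest level, per kb as well, at 1117, 697, 1224 and 1004 CPM, Rtkn2 varied most, at 13.0, 12.9, 49.6 and 32.2 CPM, and Aqp5, a water channel, varied least, at 194 to 298 CPM. Of the 7, 6 were lowest in tumour 2, where Id2 and Sox9 were at their highest. Foxa1 and Cebpa were highest there by a small margin only. Foxa1 was at 91.8 CPM against 90.8 in tumour 1, and Cebpa at 348 CPM against 341 in tumour 4.

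Gastric genes, which lung tumours are known to switch on when Nkx2-1 is lost, had a 2-fold range in 9 of 9 genes tested, against 28.5% of all genes tested. Their median SD of log2 CPM was 1.38. Their mean log2 CPM was 5.33, 5.48, 3.18 and 4.93, lowest in tumour 3. Of the 9 genes, 6 were lowest there, 2 in tumour 1 and 1 in tumour 4. Gkn2, a secreted stomach protein, had the highest level, per kb as well, at 851, 1197, 681 and 553 CPM. Gkn1 varied most, at 39.7, 6.62, 0.123 and 3.45 CPM. In tumour 3 Gkn1 had 1 count, under the floor of 3, and this low value enters the mean of 3.18. Lgals4 varied least, at 14.5 to 30.2 CPM. The gut master factors Pdx1 and Cdx2 had 0 counts in all 4 tumours. Hnf4a, the gut factor that acts beside Foxa1 and Foxa2 (chosen after its values were seen), was at 152, 130, 22.3 and 123 CPM, low in tumour 3 as Foxa1 and Foxa3 were. Nkx2-1 in tumour 3 was within 1.06-fold of tumours 1 and 2. The part of any of these factors in the levels of gastric genes was not tested.

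Among signals of the bud, Fgfr2, the receptor for the Fgf that branches the lung, had the highest CPM not corrected for length, at 352, 634, 333 and 605 CPM, high in tumours 2 and 4 like Id2. Ptch1, the receptor and target of Shh, varied most, at 4.07, 24.4, 19.7 and 21.3 CPM, and Bmpr1a, a receptor for Bmp4, varied least, at 195, 203, 152 and 234 CPM. The ligand Fgf10 was at 0.440 to 1.07 CPM. Of the 6 bud genes tested, 5 spread beyond counting error, and 4 had a 2-fold range, against 76.7% and 28.5% of all genes tested.

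Over the 117 tested genes outside the 10 factors in all the lists, cell type markers included, 92.3% spread beyond counting error and 60.7% had a 2-fold range, against 9 of 9 and 1 of 9 for the factors. For all genes tested the shares were 76.7% and 28.5%. The lists were chosen for their lineage or cell type, which makes them no random draw.

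**Figure D5:**
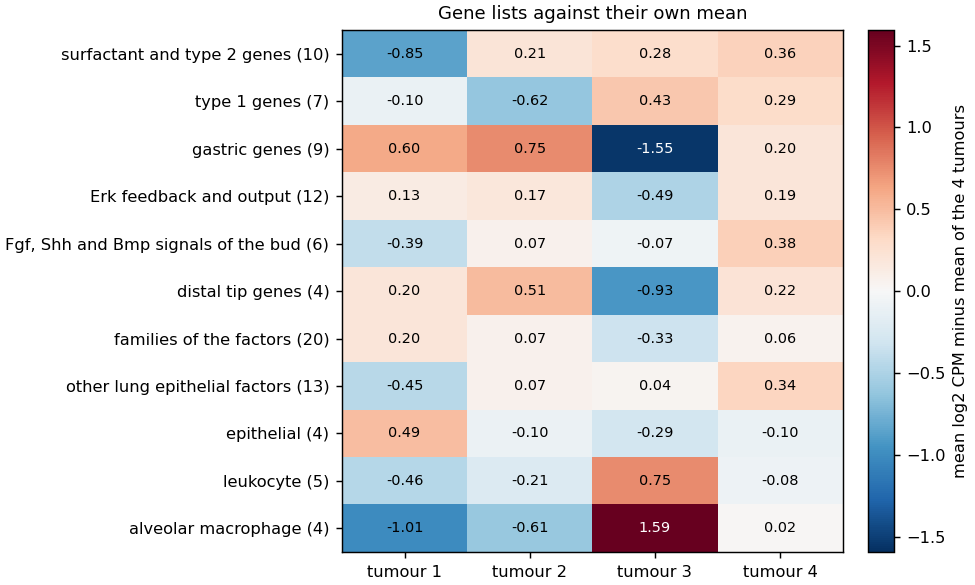
Mean log2 CPM of each gene list (rows, with the number of genes above a mean CPM of 1) in each tumour minus the list's own mean over the 4 tumours. Surfactant and type 2 genes are low in tumour 1, gastric, distal tip and Erk output genes are low in tumour 3, and leukocyte and alveolar macrophage genes are high in tumour 3. The gastric and Erk output means of tumour 3 include genes under the floor there, Gkn1 and Fosl1.

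The make-up of the tumours differed beside these values. Alveolar macrophage genes (Marco, Chil3, Ear2 and Siglecf) were highest in tumour 3, 4 of 4, with summed levels of 152, 193, 901 and 415 CPM, and 4 of 4 were lowest in tumour 1. Neutrophil genes summed to 29.8, 45.8, 64.4 and 23.5 CPM. The 4 T cell genes had few counts, with Cd3e at 0.220 to 0.617 CPM. Cd3g was at 0.550, 0.581, 3.33 and 0.357 CPM, highest in tumour 3, as was Cd3d at 1.48 CPM there. Lck, at 2.34 to 3.52 CPM, was lowest in tumour 3. Fibroblast genes summed to 528, 389, 497 and 297 CPM and endothelial genes to 181, 184, 244 and 184 CPM, but the genes within each list differed. Of the 5 fibroblast genes, the 3 collagen genes were highest in tumour 1. The other 2, Dcn (37.3, 57.4, 138 and 65.2 CPM) and Pdgfra, were lowest in tumour 1 and highest in tumour 3. Of the 6 endothelial genes, 3 were highest in tumour 3, 2 in tumour 1 and 1 in tumour 2. Among 4 epithelial genes, Cdh1 was nearly level, while Epcam was at 600, 470, 218 and 371 CPM, lowest in tumour 3, and Krt8 and Krt18 were at 1261 and 1269 CPM in tumour 1 and at 589 to 753 CPM in the others.

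When each factor was taken relative to the mean of these 4 epithelial genes, 4 of the 9 had a 2-fold range, not 1, against 48.8% of all genes tested on the same scale: Sox9 (5.10-fold), Etv5 (3.04-fold), Id2 (2.29-fold) and Nkx2-1 (2.07-fold). The mean log2 CPM of the 4 epithelial genes was 9.89 in tumour 1 against 9.11 to 9.30 in tumours 2 to 4, which by itself lowers every gene in tumour 1 on this scale. The SD of log2 level was 0.45 for Nkx2-1, 0.70 for Etv5, 0.52 for Id2 and 1.02 for Sox9. It also went up for Foxa2, from 0.105 to 0.33, and down for Foxp2, from 0.31 to 0.19, while that of Cebpa was 0.36 on either scale. The part that other cells had in the levels of the 10 factors was not tested.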

How the data were processed

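RNA of 4 macrodissected KP tumours was sequenced, with 1 library per tumour, from 500 ng of total RNA as stranded polyadenylated libraries with single-end reads of 85 nt. The authors trimmed reads with Cutadapt, aligned them to mm10 with HISAT2 and counted them per gene (featureCounts 1.4.4, per the submitters' processing notes). The deposited tables of counts are raw and not normalized, and 156068 of 156068 values were equal in the combined and the single tables. The authors also deposited log2 normalised counts (TMM, then voom), used here as an alternative only. The strand setting and annotation release are not given in the sources used here.

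From the counts, effective library sizes were computed with TMM in edgeR 4.0.16 (R 4.3.3), and log2 CPM with 0.5 added to each count. Genes averaging 1 CPM or more were tested. Spread was tested by chi-square (3 degrees of freedom, SciPy 1.17.1) at an adjusted p of 0.05. Intervals are exact Poisson intervals at 95%. They and the floor of 3 counts cover counting error only, since reads carried no molecular identifiers. The test was tested on simulated data. Positions, exon lengths and neighbours (overlapping, or with starts within 5000 nt) are from GENCODE M21 on GRCm38; near-identical copies share at least 80 nt at 97% identity by BLAST 2.17.0. Alternatives were DESeq2 1.42.0 size factors, total counts, other filters, the Poisson deviance, 2 added to the count, the deposited log2 values, levels relative to epithelial genes, other lengths and leaving out each tumour.

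The factors and lists were chosen with earlier results of these data known. All 10 factors were named, with, from each list, the genes of highest mean, largest and smallest SD above a mean CPM of 1, family genes at the floor, neighbours, and the 3 genes most like any factor with a 2-fold range. Factors were compared within tumours by an exact sign-flip permutation test. Another allele of the mice and 1 marker gene are not reported here.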

Additional observations from a re-analysis of the deposited data

Results flagged for a closer look

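In 30 sets of 4 values (the factors and the list means), the gap from the highest or lowest tumour to its nearest neighbour was compared with the whole range by Dixon's ratio, which chance passes in about 1 of 20 sets. For Cebpa, tumour 3 was low at 207 CPM. The surfactant and type 2 genes had a low mean log2 CPM of 10.83 in tumour 1, and the Erk feedback and output genes a low one of 5.08 in tumour 3. The latter mean includes Fosl1, at a log2 CPM of -1.70 from 2 counts in tumour 3, under the floor of 3 counts. Whether the list would pass without Fosl1 was not tested. The smooth muscle genes had a high mean log2 CPM of 5.85 in tumour 3, from 2 genes, Acta2 and Myh11. Neither would pass alone, at ratios of 0.163 and 0.440. Acta2 was at 300, 99.0, 372 and 106 CPM, so tumour 1 was also high, and Myh11 at 0.880, 3.25, 8.89 and 2.26 CPM. The ciliated genes had a low mean log2 CPM of -1.10 in tumour 1, close to the floor. Of these 4 genes, Dnah5 had 0 counts in tumour 1, while Ccdc39 was highest there, at 5.17 CPM. Sox9, the tested factor with the widest fold range, did not pass, at a ratio of 0.687. Nkx2-1, with tumour 4 high, fell just short of the limit at 0.828, while Cebpa passed at 0.877.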

How the results depend on the processing

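The 9 factors tested spread beyond counting error in 9 cases, in 8 with DESeq2 size factors and in 6 to 9 when 1 tumour was left out. Without a filter the count was again 9, of 10 tested, with Sox2 called (adjusted p = 0.037) and Foxa2 not (0.052). The number of factors with a 2-fold range was 4 relative to the epithelial genes, and 0 to 1 when 1 tumour was left out, 0 being the value without tumour 3. The share of all genes called was 62.3% to 71.9% with 1 tumour left out and 53.5% with no filter. The number of factor pairs in 1 order in every tumour was 39 to 43 of 45. The 41 pairs with 1 order per kb had the same one with the longest transcript and with 2 added to each count. With no length correction 37 did, and Gata6 was above Foxa2 in 4 of 4 tumours. Leaving out a tumour could not change the order of these 41 pairs, since it was the same in all 4. The mean difference changed sign for 4 pairs with no length correction (Nkx2-1 and Cebpa, Foxa1 and Foxa2, Gata6 and Foxa2, Foxp2 and Sox9), for Foxp2 and Sox9 with the longest transcript, and for Nkx2-1 and Cebpa without tumour 1 and without tumour 2. Depth limited the value of Sox2, at 1 to 8 counts per tumour.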
